A study of Mus musculus with 6 samples.

Results

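The module described here is a set of interferon-stimulated genes together with Ubd, followed across 3 subsets of endothelial cells (ECs) of the mouse thymus. Its 44 members were chosen by gene symbol from a fixed list, drawn up with earlier results of these data known. All 44 were found among the 24457 gene rows on chromosomes. The RNA came from the thymus of wildtype female C57BL/6 mice aged 4 to 6 weeks. Digested tissue was stained, and live CD31+ cells without CD45 or EpCAM were sorted by Ly6C and P-selectin (Selp) to a purity of at least 90%. The groups were type I ECs (Ly6c+ Selp-), type II ECs (Ly6c+ Selp+) and type III ECs (Ly6c- Selp+), with 2 libraries each. The study defined these subsets to find the ECs through which blood-borne progenitors enter the thymus, and used type III as the candidate entry site. Gates on 2 surface proteins define these groups, so each may hold more than 1 kind of vessel. The labels do not say whether a library came from 1 mouse or from pooled mice, so the p-values measure the spread between these libraries, which may be technical. Levels are given as FPKM, a count of fragments scaled for transcript length and for the size of the library.

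Interferons act on neighbouring cells through receptors that activate the kinases JAK1, JAK2 and TYK2. Type I interferons act on promoters through interferon-stimulated response elements (ISRE), and interferon-gamma acts through gamma-activated sites (GAS). The genes they switch on sense foreign nucleic acid, block viral entry and replication, tag proteins, and feed back on the pathway itself. Many of them are also expressed at a basal level in cells that have met no virus, endothelium included. Ubd encodes FAT10, a ubiquitin-like protein that marks its substrates for the proteasome, and is known to be induced by interferon-gamma and by tumour necrosis factor, the latter through NF-kB.

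The sort was visible in the values of its own genes. Ly6c1 was 1010 and 692 FPKM in type I, 522 and 351 in type II, and 99.6 and 59.7 in type III, and Selp was 7.87 and 5.20, 313 and 416, and 526 and 657 FPKM in the same order. The 8 endothelial markers summed to between 1962 and 2564 FPKM in every library. Markers of blood cells were detectable in every library and were uneven between them, and no marker of any list was at 0 in all 6 libraries. The 7 macrophage or monocyte markers summed to 378 and 55.6 FPKM in type I, to 149 and 53.9 in type II and to 588 and 101 in type III, and all 7 had a higher mean in the replicate 1 libraries. The 7 fibroblast or pericyte markers summed to 504 and 207 FPKM in type I, 559 and 310 in type II, and 150 and 163 in type III. In bulk RNA, fewer cells of a type and less RNA per cell cannot be told apart. The fragments behind the values, read back from the deposited intervals, summed to between 1452476 and 2423171 per library.

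As a whole the module was present at a substantial level in all 3 subsets and most of its members differed little between them. Of the 44 members, 41 had an FPKM of at least 1 in all 6 libraries, and the 43 that passed the filter on low values had a median level of 21.1 FPKM against 6.26 for all 11717 genes tested. Ifitm3 was the 11th most abundant of those genes. Between type III and type I ECs, Ubd and Irf8 rose and Oas2 fell, by limma with Benjamini-Hochberg adjustment over all genes tested. These 3 of 43 members are 6.98%, beside a background of 4.14% of all genes tested. The median difference between type III and type I was 0.072 over the members and 0.082 over all genes tested, on the log2(FPKM + 1) scale on which all differences here are given. In type II against type I no member passed the adjusted threshold by limma, where 0.393% of all genes passed, and 6 of 43 (14.0%) had an unadjusted p under 0.05, as had 7.48% of all genes. In type III against type II no member passed the adjusted threshold either, where 0.222% of all genes passed, and 6 of 43 had an unadjusted p under 0.05, as had 9.99% of all genes. With the replicate number as a block, limma called 5 members between type III and type I, adding Rsad2 and Cmpk2, where 8.29% of all genes were called. The block also called Ubd and Oas2 between type II and type I (1.56% of all genes) and Ubd between type III and type II (1.95%).

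**Figure D1:**
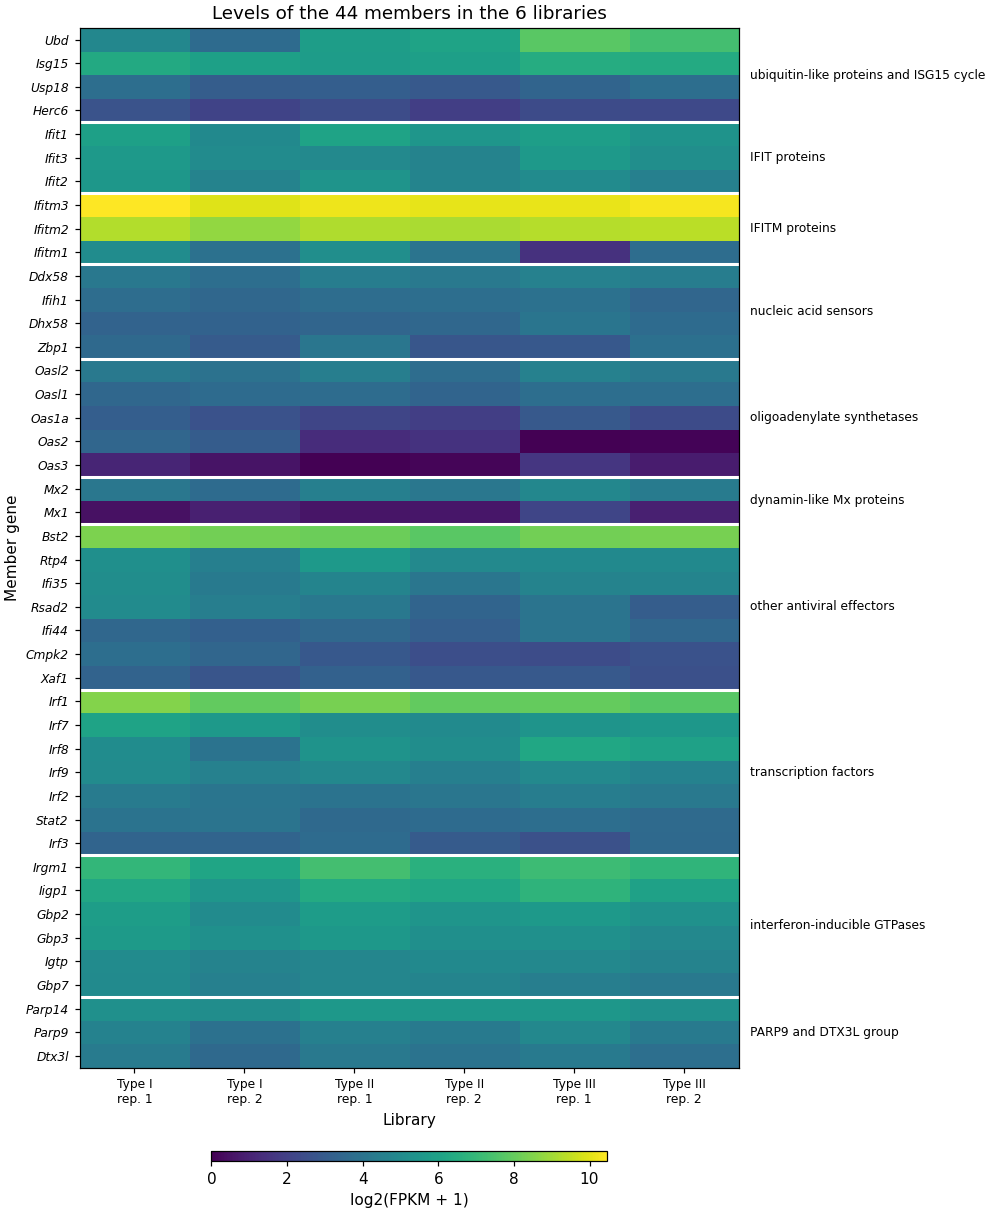
Colour gives log2(FPKM + 1) of each of the 44 members (rows, grouped by role) in each of the 6 libraries (columns, 2 replicates per subset). Ifitm3 and Ifitm2 stand at the top of the scale in every library, Ubd is brightest in both type III libraries, and Oas2 is darkest in both type III libraries.

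Ubd showed the largest rise of the module. It lies at chr17:37330837-37333046 on the plus strand (mm9), as a protein-coding gene. The 250 bases before its start are shown because they can be set against those of Isg15. That gene is a classical interferon target that passed the threshold in no comparison. Both are RefSeq promoter windows of build GRCm38.p6, placed on mm9 by exact match, and are written 5′ to 3′ on the strand of the gene. Capitals mark matches to the ISRE core GAAANNGAAA, to GAS (TTCNNNGAA) or to the NF-kB consensus, each searched on both strands. The Ubd stretch is chr17:37330587-37330836 and the Isg15 stretch is chr4:155574928-155575177, the latter on the minus strand.
Ubd: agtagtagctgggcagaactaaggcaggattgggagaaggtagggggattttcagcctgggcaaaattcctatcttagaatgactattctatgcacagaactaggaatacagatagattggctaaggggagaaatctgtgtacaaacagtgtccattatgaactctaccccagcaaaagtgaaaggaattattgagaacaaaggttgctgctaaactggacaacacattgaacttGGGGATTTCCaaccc
Isg15: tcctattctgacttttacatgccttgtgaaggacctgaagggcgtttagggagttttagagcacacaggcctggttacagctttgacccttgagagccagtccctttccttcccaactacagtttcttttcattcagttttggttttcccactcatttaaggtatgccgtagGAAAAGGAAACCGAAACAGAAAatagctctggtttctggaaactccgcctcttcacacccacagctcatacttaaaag
The Ubd window held 1 NF-kB match, from base -15 to base -6 before the start, and no ISRE core or GAS match. The Isg15 window held 3 overlapping ISRE cores between base -78 and base -57. A match describes letters and not a site in use.

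Ubd was 27.4 and 11.5 FPKM in the type I libraries, 55.1 and 65.4 in type II, and 217 and 163 in type III. The 3 subsets did not overlap, and the order was type I, type II, type III in both replicates. The mean was 19.4 ± 11.2 FPKM (SD, n = 2) in type I, 60.3 ± 7.29 in type II and 190.0 ± 38.3 in type III, so type III stood 9.78-fold above type I on the FPKM scale. The difference between type III and type I was 3.33 (SE 0.37, 95% interval 2.48 to 4.17, limma adjusted p = 0.0016), the 26th highest of all genes tested. The steps on either side of type II, 1.70 (SE 0.37, limma adjusted p = 0.14) from type I and 1.63 (SE 0.37, limma adjusted p = 0.14) to type III, did not pass. With the replicate block their limma adjusted p were 0.038 and 0.041. Without type I replicate 1 the step from type I to type II was 2.29 (limma adjusted p = 0.024). The values rested on 33 to 457 fragments per library. Ubd, Irf8, Rsad2 and Cmpk2 are on the study's own list of differential genes, made from these libraries, so their values are not independent of that list. Oas2, the member called lower here, is not on that list.

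The genes next to Ubd did not share this level. Of the 9 other gene rows within 100000 bases, 8 were olfactory receptor genes at or below 2.16 FPKM in every library, and H2-M3, which encodes a non-classical class I molecule, was 18.5 and 11.5 FPKM in type I and 27.8 and 19.7 in type III (difference 0.64, limma adjusted p = 0.44). Markers of cells that can express Ubd were set beside it. The 6 thymic epithelial markers summed to 46.5 and 18.0 FPKM in type I, 23.3 and 17.7 in type II, and 46.0 and 12.3 in type III. The 6 dendritic cell markers summed to 29.6 and 21.1 FPKM in type I, 17.4 and 17.4 in type II, and 27.2 and 21.4 in type III, mostly from Zbtb46, which was 21.9 and 18.8 FPKM in type I and 7.31 and 11.8 in type III. Without Zbtb46 the other 5 summed to 7.71 and 2.29 FPKM in type I, 5.51 and 3.71 in type II, and 19.9 and 9.66 in type III, and so were higher in type III than in type I in both replicates. None of the 6 genes was at 0 in all libraries. Their part in the Ubd values was not tested.

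The other members of the ubiquitin-like group act in the ISG15 cycle, in which ISG15 is joined to target proteins by the ligase Herc6 and removed by Usp18. None of these 3 passed the threshold in any comparison. Isg15 was 82.0 and 61.0 FPKM in type I, 53.5 and 59.6 in type II, and 87.6 and 84.0 in type III, with a difference of 0.27 between type III and type I (95% interval -0.27 to 0.82). Both type III libraries lay above all 4 others. Usp18 was between 6.69 and 12.9 FPKM and Herc6 between 2.80 and 5.45 FPKM over the 6 libraries, with subsets that overlapped between type III and type I.

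**Figure D2:**
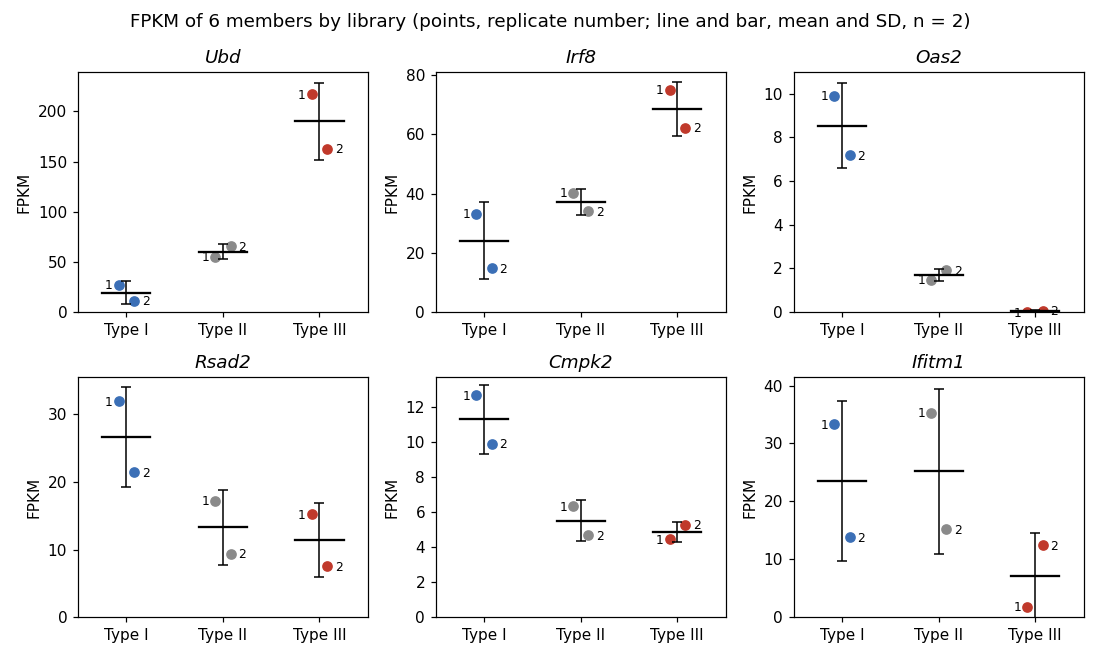
Each panel gives the FPKM of 1 member in the 6 libraries (points, numbered by replicate), with the mean (line) and SD (bar, n = 2) of each subset, on axes that start at 0. Ubd and Irf8 are highest in both type III libraries, Oas2, Rsad2 and Cmpk2 are highest in both type I libraries, and Ifitm1 is lowest in type III replicate 1, at 1.82 FPKM.

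Among the 7 transcription factors of the pathway, Irf8 rose in type III ECs. IRF8 is known for directing the development of monocytes, dendritic cells and B cells, and is itself induced by interferon-gamma. The gene lies at chr8:123260276-123280592 on the plus strand. The 250 bases before the first of its RefSeq starts, at chr8:123260008-123260257, are shown because they hold 2 GAS matches, in capitals, between base -171 and base -145.
Irf8: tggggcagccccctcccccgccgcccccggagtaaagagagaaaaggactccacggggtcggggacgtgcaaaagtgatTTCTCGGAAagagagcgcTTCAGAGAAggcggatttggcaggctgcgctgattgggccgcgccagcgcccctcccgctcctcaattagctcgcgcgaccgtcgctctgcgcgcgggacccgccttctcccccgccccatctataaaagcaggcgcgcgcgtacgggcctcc
Its second window held no match to any of the 3 motifs.

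Irf8 was 33.2 and 14.9 FPKM in type I, 40.4 and 34.0 in type II, and 75.1 and 62.2 in type III. Both type III libraries lay above the other 4. The mean was 24.1 ± 13.0 FPKM (SD, n = 2) in type I and 68.7 ± 9.12 in type III, a ratio of 2.86, and the difference was 1.57 (SE 0.36, 95% interval 0.77 to 2.38, limma adjusted p = 0.043). This call was close to the threshold. Leaving out type I replicate 1 kept it, with a difference of 2.13 (limma adjusted p = 0.0081). It was lost without type I replicate 2 (1.02, limma adjusted p = 0.14), without type II replicate 1 or 2 (limma adjusted p = 0.052 and 0.057), without type III replicate 1 (1.44, limma adjusted p = 0.25) and without type III replicate 2 (1.71, limma adjusted p = 0.13). With the replicate block the limma adjusted p was 0.0055.

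Since blood cells express Irf8, their markers were set beside it. These markers were higher in type III than in type I within each replicate, as Irf8 was. The 4 pan-haematopoietic markers summed to 115 FPKM in type I and 209 in type III in replicate 1, and to 37.5 and 81.9 in replicate 2. The 7 macrophage or monocyte markers went from 378 to 588 FPKM and from 55.6 to 101, the 7 T-lineage markers from 69.0 to 111 and from 20.0 to 58.5, and the 4 B-lineage markers from 4.58 to 14.6 and from 3.15 to 8.08. Siglech, a marker of plasmacytoid dendritic cells, went from 0.870 to 6.90 FPKM and from 0.232 to 1.88. In type II the pan-haematopoietic sums (55.9 and 26.3 FPKM) and the macrophage or monocyte sums (149 and 53.9) were below type I in both replicates. The macrophage or monocyte gap was small in replicate 2 (53.9 against 55.6 FPKM). The T-lineage and B-lineage sums of type II were each above type I in 1 replicate only. Siglech was above type I in both, at 1.53 and 0.368 FPKM. Of the other dendritic cell markers, Itgax and Zbtb46 were below type I in both replicates. Flt3, Xcr1 and Ccr9 were below type I in replicate 1 and above it in replicate 2. Across replicates, type I replicate 1 held more of the pan-haematopoietic, macrophage and T-lineage markers than type III replicate 2. It held less of the B-lineage markers, of Siglech and of the summed dendritic cell markers other than Zbtb46 (7.71 against 9.66 FPKM). Within that sum, Siglech and Ccr9 (3.09 against 4.70 FPKM) were lower in type I replicate 1. Itgax (2.25 against 1.96 FPKM), Flt3 (0.829 against 0.748) and Xcr1 (0.674 against 0.365) were higher in it. Irf8 was 33.2 FPKM in type I replicate 1 and 62.2 FPKM in type III replicate 2. The part of blood cells in the Irf8 values was not tested.

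**Figure D3:**
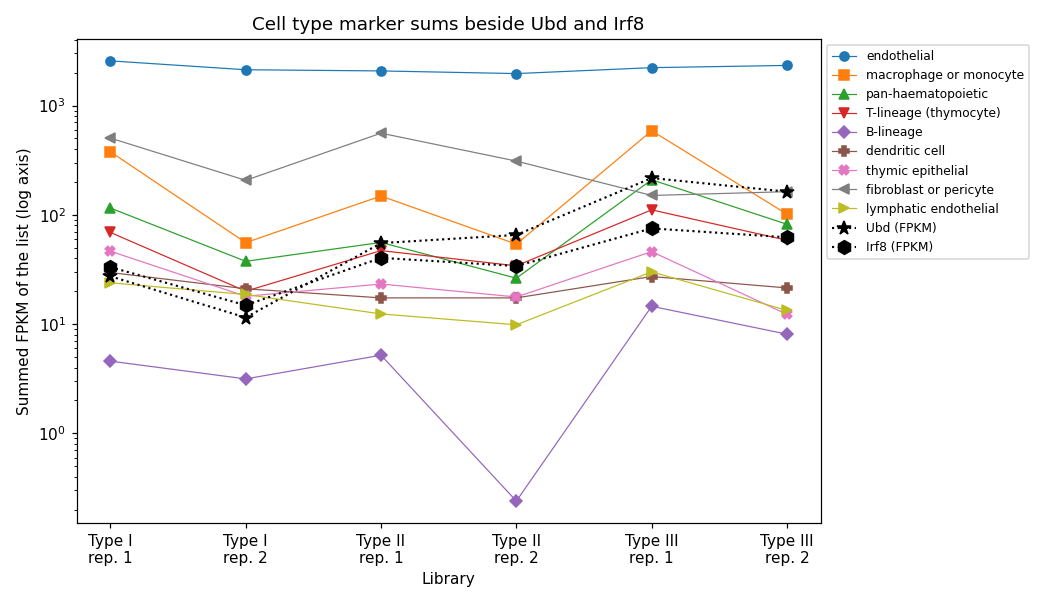
Points give the summed FPKM of each cell type marker list in the 6 libraries, on a log axis, with the FPKM of Ubd and Irf8 (black, dotted), and lines only join the values of a list. Macrophage or monocyte markers are higher in replicate 1 than in replicate 2 of each subset (588 against 101 FPKM in type III). Within each replicate they are higher in type III than in type I, as are Ubd and Irf8. Within each replicate they are lower in type II than in type I, though only slightly in replicate 2 (53.9 against 55.6 FPKM). Ubd and Irf8 are higher in type II than in type I.

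The other 6 factors did not pass the threshold in any comparison. Irf1, which interferon-gamma induces strongly, was the most abundant of them, at 364 and 248 FPKM in type I, 317 and 250.1 in type II, and 252 and 211 in type III (difference -0.38 between type III and type I, 95% interval -0.99 to 0.23). The type III and type I values overlapped. Irf7, which amplifies type I interferon production, was 67.0 and 48.4 FPKM in type I, 33.7 and 31.2 in type II, and 42.1 and 45.2 in type III. Its type II values lay below all 4 others, with a difference of -0.79 from type I (limma adjusted p = 0.37). Stat2 and Irf9, which act in the type I interferon response, differed by -0.31 and -0.060 between type III and type I. Irf2, an antagonist of IRF1, and Irf3, which the sensors activate, differed by 0.14 and -0.28.

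Oas2 moved opposite to Ubd. The oligoadenylate synthetases respond to double-stranded RNA by making short oligoadenylates that switch on RNase L. Oas2 (chr5:121180342-121199857, minus strand) was 9.91 and 7.17 FPKM in type I, 1.49 and 1.91 in type II, and 0 and 0.0706 in type III. The subsets did not overlap, and the order was the reverse of that of Ubd. The difference between type III and type I was -3.19 (SE 0.35, 95% interval -3.99 to -2.39, limma adjusted p = 0.0015), the 26th lowest of all genes tested. Because type III was near 0, the size depended on the added constant and was -6.03 (limma adjusted p = 0.0020) with 0.1 in place of 1. About 114 and 103 fragments stood behind the type I values and 0 and 1 behind those of type III. The step from type I to type II was -1.81 (limma adjusted p = 0.093) and that from type II to type III was -1.38 (limma adjusted p = 0.20). The block brought the first to a limma adjusted p of 0.039, and the second stayed at 0.080. The summed fibroblast or pericyte markers were also lower in type III, mostly from Rgs5. The sums were 504 and 207 FPKM in type I, 559 and 310 in type II, and 150 and 163 in type III. Rgs5 was 346 and 114 FPKM in type I and 48.6 and 45.4 in type III. Pdgfrb and Cspg4 were also lower in both replicates. Acta2 was higher in both, at 13.7 and 7.54 FPKM in type I and 16.9 and 33.8 in type III. Pdgfra, Col1a1 and Dcn were lower in replicate 1 and higher in replicate 2. The part of such cells in the Oas2 difference between type III and type I was not tested.

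None of the other 4 members of the Oas and Oasl family, which need not all share this activity, passed in any comparison by limma. Oas3, on the same strand 3249 bases away, was 1.13 and 0.452 FPKM in type I, 0 and 0.119 in type II, and 2.16 and 0.744 in type III. Its type II values lay below all 4 others and rested on 2 fragments at most. Oas1a was 7.75 and 5.30 FPKM in type I, 3.5023 and 2.87 in type II, and 6.62 and 4.29 in type III, so that type II lay below type I in both replicates, as for Oas2 (difference -0.83, SE 0.34, limma adjusted p = 0.60). The Oas3 difference between type II and type I was -0.73. The Oas3 difference between type III and type II was 1.15 (SE 0.45, limma adjusted p = 0.45). Oasl2, the most abundant member of the family, was 17.6 and 14.5 FPKM in type I, 21.3 and 12.4 in type II, and 23.4 and 17.9 in type III (difference 0.34 between type III and type I, limma adjusted p = 0.76). Oasl1 and Oas1a differed by 0.20 and -0.23. Members of this family share sequence, and counting may split reads between them, so their single values are uncertain to that extent, as are those of the GBP, IFIT and IFITM families. Among the neighbours of Oas2, Rasal1, which encodes a Ras GTPase-activating protein, was 1.57 and 1.59 FPKM in type I and 16.0 and 20.0 in type III (difference 2.87, limma adjusted p = 0.0042), opposite to Oas2.

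Rsad2 and Cmpk2 form a head-to-head pair on chr12, 12762 bases apart. Rsad2 (viperin) makes a chain-terminating nucleotide from CTP, and Cmpk2 is a mitochondrial nucleotide kinase that supplies CTP. Their upstream stretches are shown because the genes are neighbours with a like pattern and differ in motif content. The Rsad2 stretch (chr12:27141318-27141567, minus strand) holds 1 ISRE core on the reverse strand from base -120 to base -111, in capitals, and the Cmpk2 stretch (chr12:27153830-27154079, plus strand) holds no match to the 3 motifs.
Rsad2: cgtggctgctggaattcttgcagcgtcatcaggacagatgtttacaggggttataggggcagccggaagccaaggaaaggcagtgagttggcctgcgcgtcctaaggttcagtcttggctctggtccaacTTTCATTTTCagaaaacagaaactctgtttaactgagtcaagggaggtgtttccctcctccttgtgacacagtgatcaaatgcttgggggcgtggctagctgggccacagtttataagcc
Cmpk2: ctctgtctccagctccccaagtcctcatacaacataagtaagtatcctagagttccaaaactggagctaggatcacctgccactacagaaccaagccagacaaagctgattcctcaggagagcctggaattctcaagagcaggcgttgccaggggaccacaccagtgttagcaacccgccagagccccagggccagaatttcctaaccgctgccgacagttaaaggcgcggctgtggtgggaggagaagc
Rsad2 was 31.9 and 21.4 FPKM in type I, 17.2 and 9.37 in type II, and 15.3 and 7.58 in type III. Cmpk2 was 12.7 and 9.90 FPKM in type I, 6.33 and 4.68 in type II, and 4.47 and 5.28 in type III. For both genes the type I libraries lay above the other 4, while type II and type III overlapped. The differences between type III and type I were -1.20 for Rsad2 (SE 0.40, limma adjusted p = 0.18) and -1.06 for Cmpk2 (SE 0.31, limma adjusted p = 0.11), and neither passed. With the replicate block the limma adjusted p were 0.0087 and 0.039. Both replicates showed the direction, at -1.02 and -1.39 for Rsad2 and at -1.32 and -0.80 for Cmpk2.

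The remaining antiviral effectors did not pass the threshold in any comparison. Bst2 (tetherin), which holds budding virus at the cell surface, was 338 and 304 FPKM in type I, 274 and 218 in type II, and 303 and 323 in type III, with a difference of -0.036 between type III and type I (95% interval -0.55 to 0.48). Its type II values lay below all 4 others (-0.39 from type I, limma adjusted p = 0.81). Ifi44, Ifi35, Xaf1 and Rtp4 differed by between -0.30 and 0.40, and none passed.

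The IFITM proteins stop viruses from fusing with the cell, and Ifitm3 and Ifitm2 held the highest levels of the module. Ifitm3 was 1414 and 978 FPKM in type I, 1166 and 1075 in type II, and 1113 and 1297 in type III, and the subsets overlapped (difference 0.031 between type III and type I, 95% interval -0.56 to 0.62). Its sign turned under both rescalings of the libraries, to -0.13 with quantile normalisation and -0.067 with median-ratio scaling. Ifitm2 was between 440.5 and 664 FPKM. Ifitm1 was 33.3 and 13.8 FPKM in type I, 35.3 and 15.2 in type II, and 1.82 and 12.4 in type III. Both type III values lay below the others, but the gap came from replicate 1, where about 1 fragment stood behind the value. The difference between type III and type I was -3.61 in replicate 1 and -0.15 in replicate 2, and -1.88 in the fit (SE 0.71, limma adjusted p = 0.26). Without type III replicate 2 it was -3.001 and passed the threshold (limma adjusted p = 0.0498), and without type III replicate 1 it was -0.75 (limma adjusted p = 0.99).

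The IFIT proteins, which bind foreign RNA, were likewise not called. Ifit1 was 60.4 and 30.3 FPKM in type I, 65.8 and 43.7 in type II, and 58.1 and 40.9 in type III, and in each subset the replicate 1 library was the higher. Ifit1, Ifit2 and Ifit3 differed by 0.18, -0.28 and 0.072 between type III and type I. The nucleic acid sensors Ddx58 (RIG-I), Ifih1 (MDA5), Dhx58 (LGP2) and Zbp1 differed by 0.53, 0.057, 0.55 and 0.093 between the same subsets. Ddx58 was 17.1 and 12.8 FPKM in type I, 20.5 and 17.9 in type II, and 23.1 and 20.6 in type III. Its type III libraries lay above the 4 others, with a limma adjusted p of 0.45 against type I.

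Mx proteins are dynamin-like GTPases that block viral replication, and laboratory strains including C57BL/6 carry a defective Mx1 allele. Mx1 was the member that failed the filter on low values, with 3.57 FPKM in type III replicate 1 and at most 0.899 FPKM in the other 5 libraries. Mx2 was 16.8 and 11.6 FPKM in type I, 22.2 and 16.7 in type II, and 27.5 and 19.6 in type III (difference 0.69 between type III and type I, SE 0.31, limma adjusted p = 0.35). The type III values lay above those of type I in both replicates, by 0.68 and 0.71.

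The interferon-inducible GTPases, which attack the vacuoles of intracellular pathogens, ranged from -0.45 (Gbp7) to 0.53 (Iigp1) between type III and type I, and none of the 6 passed. Irgm1, the most abundant, was 121 and 69.7 FPKM in type I, 161 and 98.3 in type II, and 144 and 113 in type III, with subsets that overlapped. Gbp3 and Gbp7, which lie in a cluster with Gbp2 on chr3, had both type III libraries below both type I libraries (differences -0.41 and -0.45, limma adjusted p = 0.63 and 0.55). Parp9 and Dtx3l, partners in an ADP-ribosylation and ubiquitin ligase complex, and Parp14, an ADP-ribosyltransferase, differed by 0.31, 0.11 and 0.20. Parp14 was 37.6 and 34.3 FPKM in type I, 46.6 and 45.1 in type II, and 45.7 and 37.6 in type III.

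**Figure D4:**
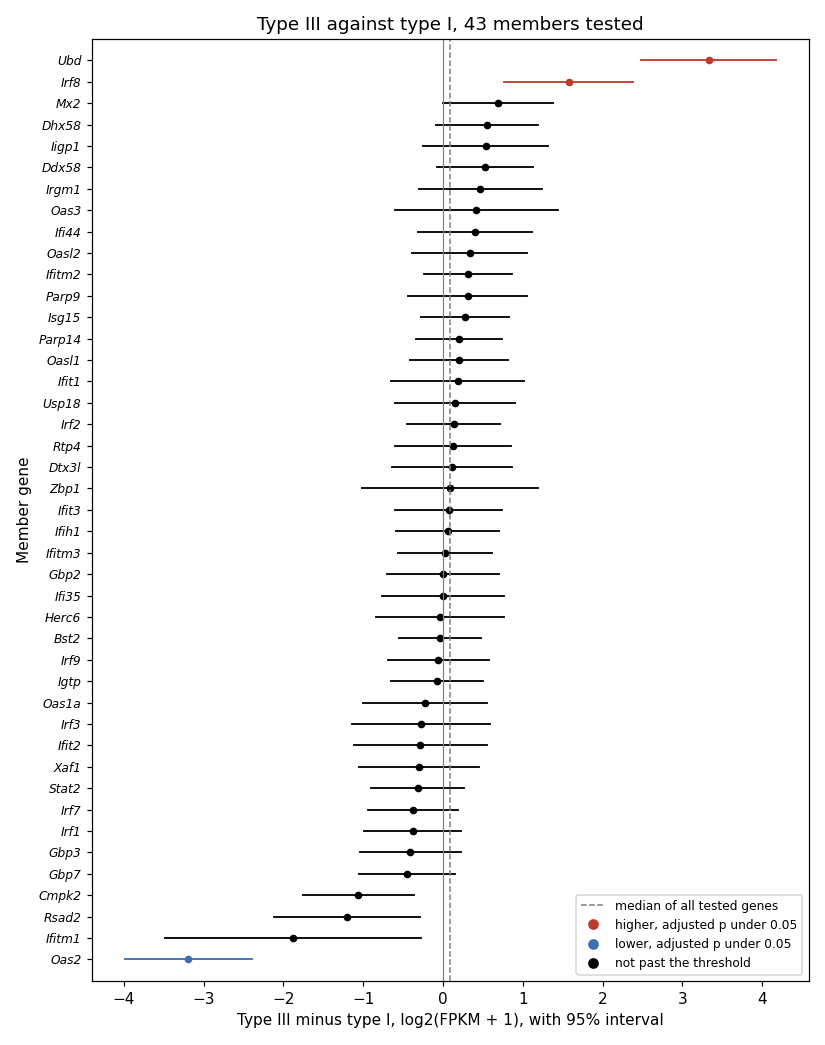
Points give the difference between type III and type I on the log2(FPKM + 1) scale for the 43 members tested, with 95% intervals from limma, and the dashed line is the median of all genes tested, 0.082. Ubd and Irf8 (red) lie to the right and Oas2 (blue) to the left, and 33 of the 43 members lie between -0.5 and 0.5.

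Most of these differences were small and were measured with limited precision. Between type III and type I, 37 of the 43 members differed by less than 1, and the whole 95% interval lay within 1 in either direction for 21 of them. For the others, a difference of 1 could not be set aside at this precision. The SE ran from 0.23 to 0.71 with a median of 0.32 over the members, against 0.35 over all genes tested. Counts of members whose subsets did not overlap stood near the background. The 2 subsets compared were fully apart, with no library of the lower one reaching a library of the higher one, for 17 of 43 members between type III and type I, against 37.9% of all genes tested, for 15 between type II and type I, against 33.6%, and for 17 between type III and type II, against 41.0%.

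The replicates themselves differed in the level of the module. In type I, 41 of the 43 members were higher in replicate 1, with a median difference of 0.50 from replicate 2, where 81.9% of all genes tested were higher with a median of 0.39. In type II the members' median was 0.24 against 0.14 for all genes, and in type III it was 0.27 against 0.18. The 3 comparisons of subsets share libraries, so their values for a member are not independent of each other.

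The receptors for interferon were expressed in all 3 subsets at levels that did not pass the test in any comparison. Ifnar1 and Ifnar2, the chains of the type I receptor, were between 7.29 and 11.2 and between 36.9 and 62.3 FPKM over the 6 libraries. Ifngr1 and Ifngr2, the chains of the interferon-gamma receptor, were between 76.0 and 126 and between 13.9 and 24.4 FPKM. Ifnlr1, of the interferon-lambda receptor, was at most 0.335 FPKM. None of the 13 tested genes for receptors and signalling passed in any comparison by limma, and with the replicate block 1, the kinase gene Jak1, rose between type III and type I (difference 0.88, limma adjusted p = 0.026, against 0.098 without the block). Of 11 interferon genes with a row, 10 were listed at 0 in all 6 libraries, and Ifna1 was 0.703 FPKM in type III replicate 2.

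Wider lists of the pathway, drawn up with earlier results of these data known, were counted in the same fit. Of 46 further interferon-stimulated genes tested, 1 rose and 1 fell between type III and type I, where 2.09% of all genes tested rose and 2.05% fell. Gbp6, a guanylate-binding protein, was 13.5 and 10.04 FPKM in type I, 26.9 and 26.8 in type II, and 43.8 and 38.4 in type III (difference 1.73, limma adjusted p = 0.0063). Lgals3bp, a secreted galectin-binding glycoprotein, was 120 and 104 FPKM in type I, 69.0 and 42.3 in type II, and 51.3 and 26.3 in type III (difference -1.57, limma adjusted p = 0.043). None of 16 genes of class I presentation and the immunoproteasome passed in any comparison by limma, nor did any of 9 sensing adaptors and kinases. Tmem173, which encodes the adaptor STING and was singled out after its values were seen, was 42.6 and 27.4 FPKM in type I, 57.6 and 55.7 in type II, and 72.8 and 80.7 in type III, and just missed the threshold (difference 1.14, SE 0.27, limma adjusted p = 0.0504). Of 19 genes of the NF-kB and tumour necrosis factor response, 3 rose between type III and type I, beside the same 2.09% of all genes. These were Sele (difference 4.58), Vcam1 (2.55) and Traf1 (1.60), with limma adjusted p of 3.0e-05, 0.0094 and 0.021. Sele and Vcam1 encode leukocyte adhesion molecules and Traf1 a signalling adaptor. The other genes of this list did not pass between type III and type I by limma, with differences from -1.17 to 0.61. Sele also rose between type II and type I, by 4.16 (limma adjusted p = 7.2e-05). With the replicate block 2 sensing genes rose between type III and type I, Tmem173 (limma adjusted p = 0.014) and Mb21d1, which encodes cGAS (difference 1.29, limma adjusted p = 0.015), and Cxcl9 joined the further interferon-stimulated genes (1.02, limma adjusted p = 0.0091). In the NF-kB list the block added 2 chemokine genes that fell, Cxcl1 (-1.17, limma adjusted p = 0.0097) and Ccl2 (-0.96, limma adjusted p = 0.027). Between type II and type I it added Gbp6, Cxcl9 and Vcam1, which rose (limma adjusted p = 0.032, 0.033 and 0.031), and between type III and type II it added Cxcl1 (-1.32), which fell. Of the genes named here, all but Ccl2 are on the study's list of differential genes too, so their directions are not independent evidence.

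Promoter letters were compared over the members as a description. The members were chosen as interferon-stimulated genes, so their share of interferon motifs is not a result of these libraries. RefSeq windows, from 250 bases before to 50 after the start, were at hand for 34 members, 5 of them with 2 windows. No window was held for Mx1, Mx2, Parp9, Parp14, Oas2, Zbp1, Rtp4, Dhx58, Iigp1 and Usp18. The ISRE core was found in 18 of the 34 members (52.9%) against 3.99% of all 27025 genes with a window, GAS in 10 (29.4%) against 9.55%, and the NF-kB consensus in 5 (14.7%) against 5.14%. The 5 were Ubd, Bst2, Irf1, Irf2 and Oasl1. Of the 27 ISRE core matches, 2 overlapped a match to another motif. The members with an ISRE core, Rsad2 among them, had a median difference of 0.044 between type III and type I. The 16 without, among them Ubd, Irf8, Cmpk2 and Ifitm1, had a median of -0.047. With and without a match the medians were -0.057 and 0.064 for GAS, and 0.136 and -0.002 for NF-kB.

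**Figure D5:**
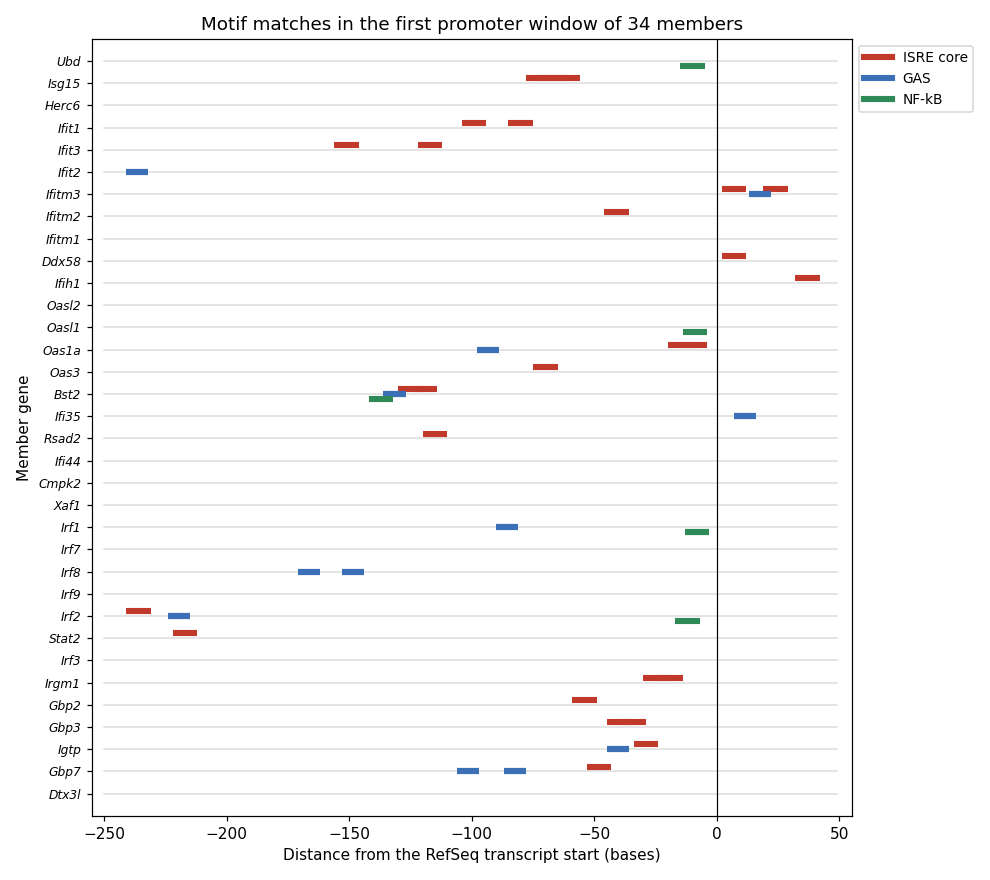
Bars give the positions of ISRE core, GAS and NF-kB matches along the first promoter window of each of the 34 members with a window, in bases from the RefSeq transcript start. Isg15 carries 3 ISRE cores between base -78 and base -57, and the single match in the Ubd window is an NF-kB match ending at base -6.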

How the data were processed

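RNA from 6 libraries of sorted thymic ECs was extracted with a micro-column kit, made into libraries that do not mark strand, and sequenced in read pairs. The authors' processing notes name CASAVA 1.8, TopHat2 2.0.10, Cufflinks 2.1.1 and Cuffdiff with build mm9, and the gene annotation is not given in the sources used here. The authors deposited FPKM per gene and library with 95% intervals. Values of 95 spike-in and reporter rows were left out. Locus starts in the deposited files count from 0 and were raised by 1.

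From these FPKM, log2(FPKM + 1) was computed without rescaling, and the 11717 genes that reached 1 FPKM in 2 libraries or more were fitted with limma 3.58.1 in R 4.3.3 (1 mean per subset, all 6 libraries, trended empirical Bayes, 9 degrees of freedom). P-values were adjusted by Benjamini-Hochberg over all genes tested in each comparison, at a threshold of 0.05. The study used Cuffdiff on reads, which cannot be run on FPKM. An exact permutation test of 2 against 2 libraries cannot go below 0.33. The code was tested on simulated data. Fragment numbers were derived from the width of the deposited intervals, taking these to reflect counting error only, and floors cover that error only. Replicate numbers in the labels match across subsets, and deviations of same-numbered libraries from their subset means correlated at 0.20, 0.31 and 0.18, so the block result is given where it changes a call. The labels do not say what a number stands for.

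The members and gene lists were chosen with earlier results of these data known. Per-library values are given for Ubd, for members past the threshold, for members whose subsets did not overlap and differed by at least 1 in any comparison, and for the most abundant member of each role group. The other genes named from wider lists are those past the threshold, at most 6 a list by the smallest p, and the interferon receptors. Neighbours, single markers and further members named with a value were chosen after the values were seen. Alternatives were 2 other constants, no filter and a mean of at least 5 FPKM, quantile normalisation, median-ratio scaling, the replicate block, no trend, a fit of only the 4 libraries compared, and each library left out.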

Additional observations from a re-analysis of the deposited data

Results flagged for a closer look

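The deposited files also hold a row for an mRFP reporter, which the comparisons do not use and which no label mentions for these wildtype mice. It is listed here because it stood above the 3 fragments that a count of 0 allows in every library. Its level was 18.2 FPKM in type I replicate 1, 1.83 in type I replicate 2, 23.7 in type II replicate 1, 5.31 in type II replicate 2, 28.3 in type III replicate 1 and 3.23 in type III replicate 2. In each subset the replicate 1 library was the higher.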

How the results depend on the processing

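The rise of Ubd between type III and type I passed the threshold under all 15 alternatives (2.74 to 3.92), as did the fall of Oas2 under the 14 that tested it (-6.03 to -2.98). Irf8 passed under 6 of 15. With quantile normalisation 5 members were called between type III and type I, among them Cmpk2 and Irf1 (-0.61), and 2 between type II and type I, and with median-ratio scaling 4 and 2. With the replicate block the counts were 5, 2, and 1 between type III and type II. Without 1 library each, between 2 and 3 members were called between type III and type I, and between 0 and 1 between type II and type I, the 1 being Ubd without type I replicate 1. The cause was not tested. The members' median difference between type III and type I ran from -0.22 without type I replicate 2 to 0.30 without type I replicate 1, and that of all genes tested from -0.12 to 0.28 in the same 2 fits. Of 13 uncalled members run under the alternatives, 9 kept their sign under all of them and 4 did not. Ifitm3 was -0.13 with quantile normalisation and -0.067 with median-ratio scaling, and with 1 library left out it ran from -0.24 to 0.30, Bst2 from -0.11 to 0.040, Ifit1 from -0.30 to 0.67 and Oas3 from -0.011 to 0.85. Median-ratio scaling moved the median difference of all genes between type III and type II from 0.14 to 0.011. Over all genes, the alternatives called 209 to 971 between type III and type I, 12 to 183 between type II and type I and 0 to 229 between type III and type II, against 485, 46 and 26, and the share called higher fell from 82.6% to 69.5% between type II and type I and from 42.3% to 27.4% between type III and type II with median-ratio scaling. Where a library was left out, the lone library of its subset was assumed to vary like the other groups. Low members are limited by depth, since Oas2, Oas3, Mx1 and Ifitm1 rest on 2 fragments or fewer in at least 1 library.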
